A study of Homo sapiens with 2 samples.

Results

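Translation initiation factors are the proteins that bring messenger RNA, the initiator tRNA and the ribosome together before protein synthesis begins. Their genes were read out in Huh7, an established human hepatocellular carcinoma line, with 1 library of cells labelled Neil3 KD (NEIL3 knockdown) and 1 library of cells labelled shGFP (genotype control). Members were all protein-coding genes whose symbol begins with EIF1 to EIF6, readthrough genes excluded, which gave 55 of the 58220 genes in the deposited table. Of these, 51 reached 1 FPKM (sequenced fragments divided by transcript length and library size) in at least 1 library. The labels state neither how NEIL3 was knocked down nor whether the cells came from 1 clone. In bulk RNA, fewer cells that express a gene and less RNA per cell cannot be told apart. With 1 library per group no difference could be set against replicate error, so no test was run and every value below describes these 2 libraries.

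Initiation starts when eIF2 delivers the initiator tRNA to the small ribosomal subunit, on which eIF1, eIF1A, eIF3 and eIF5 assemble. The cap-binding complex eIF4F recruits the messenger RNA, and 4E-binding proteins under the kinase mTORC1 block its cap-binding subunit. Stress kinases phosphorylate eIF2 and thereby inhibit its exchange factor eIF2B. Several factors of the translation machinery are made from messenger RNAs that begin with a C and an unbroken run of pyrimidines, the terminal oligopyrimidine (TOP) motif, which places their translation under mTORC1 and the RNA-binding protein LARP1.

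The bases at the transcription start are shown first because all measured members with a run of pyrimidines there were slightly lower in the knockdown library, as were 13 of the 43 measured members without a listed run. RefSeq promoter windows on build GRCh38.p14 were found for 46 of the 55 members, 42 of them among the 51 measured. A pyrimidine start was taken as a C at the listed start followed by at least 4 more C or T bases, a rule chosen after the values had been seen. It was met by 9 members, of which 8 were measured. Each line below gives 15 bases before and 15 bases from the listed start, 5′ to 3′ on the gene's own strand, with the pyrimidine run in capitals.
EIF2S3 (chrX:24054941-24054970, plus strand): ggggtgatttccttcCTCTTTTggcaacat
EIF2A (chr3:150546772-150546801, plus strand): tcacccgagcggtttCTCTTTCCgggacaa
EIF3F (chr11:7987322-7987351, plus strand): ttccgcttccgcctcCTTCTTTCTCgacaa
EIF4A2 (chr3:186783562-186783591, plus strand): gttgggcgccgctgtCTTTTCagtcgggcg
EIF3D (chr22:36529152-36529181, minus strand): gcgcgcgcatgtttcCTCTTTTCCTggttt
EIF4B (chr12:53006441-53006470, plus strand): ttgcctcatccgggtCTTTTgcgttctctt
EIF3M (chr11:32583816-32583845, plus strand): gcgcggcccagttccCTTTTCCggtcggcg
EIF2D (chr1:206612451-206612480, minus strand): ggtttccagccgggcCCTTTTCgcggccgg
EIF3K (chr19:38619173-38619202, plus strand): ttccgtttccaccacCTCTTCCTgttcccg
The last 3 windows, given for contrast, are of members whose single listed start lacks such a run. They were picked from members at least 1.2-fold higher in the knockdown library. They therefore do not show how well the letters separate higher from lower genes. Not shown are the 9 of 34 measured members with a listed start lacking such a run that were lower, EIF1 and EIF1B among them. In EIF3J the run CTCCTC begins shortly after the listed start. EIF3J thus meets the looser rule given below, which allows a nearby start.
EIF2B3 (chr1:44986581-44986610, minus strand): attgggctgtcagtcagaggcggcgtggag
EIF3J (chr15:44537132-44537161, plus strand): cacctccgccgtgctaactcctcgctagct
EIF1AD (chr11:66002143-66002172, minus strand): cgagacagcgccggaagtacggttttcgga

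NEIL3 itself stood at 2.84 FPKM in the knockdown library and 5.34 FPKM in the shGFP library, a plain ratio of 0.532. All 9 listed liver markers were measured, with a summed level of 2836 FPKM in the knockdown library and 2635 FPKM in the shGFP library, 6 of 9 at least 1.2-fold higher (background 17.7%) and 0 lower. AFP (alpha-fetoprotein) stood apart, at 59.8 FPKM in the knockdown library and 12.3 FPKM in the shGFP library, and SERPINA1 was 1.62-fold higher. ALB (albumin), which makes up much of the sum, stood at 1272 FPKM in the knockdown library and 1346 FPKM in the shGFP library. Of the markers of leukocytes, endothelium and fibroblasts, 1 of 3, 1 of 3 and 4 of 4 reached 1 FPKM, PTPRC and CD3E being under it, and the summed levels were 5.71, 3.995 and 28.4 FPKM in the knockdown library and 2.85, 3.16 and 28.2 FPKM in the shGFP library. Mitochondrial transcripts took 26.3% of all FPKM in the knockdown library and 23.1% in the shGFP library, and the knockdown library may have held 77.8% as many fragments. Apart from a scaling without mitochondrial transcripts, given near the end, the part that these library differences play in the values below was not tested.

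Most initiation factors differed little between the libraries. Summed over all 55 members, the level was 5740 FPKM in the knockdown library and 5633 FPKM in the shGFP library, a ratio of 1.02. Their share of all FPKM was 0.988% in the knockdown library and 1.03% in the shGFP library. With mitochondrial transcripts left out, that share was 1.34% in both libraries. Differences are given as log2((knockdown FPKM + 1)/(shGFP FPKM + 1)), a scale on which low genes appear to differ less than they do. On this scale 3 of the 51 measured members (5.88%) were at least 1.5-fold higher in the knockdown library and 0 were at least 1.5-fold lower, where 4.08% and 3.86% of the 11704 protein-coding genes with the same FPKM minimum were higher and lower by that fold. At a fold of 1.2, 14 members (27.5%) were higher against 17.7% of all protein-coding genes, and 0 were lower against 13.9%. The members are of high level, and among the 40 with a mean of 20 FPKM or more, 7 (17.5%) were at least 1.2-fold higher and 0 lower, beside 17.4% and 7.89% of protein-coding genes at that level. The share of higher members is thus close to the background at that level. Of the 11 measured members under it, 7 (63.6%) were at least 1.2-fold higher, and all 11 were above 0. The 7 include EIF3C and EIF3CL, near copies of each other, and EIF4EBP3, much of which is shared with a readthrough gene. Over all levels 2070 of 11704 protein-coding genes were at least 1.2-fold higher, and at 20 FPKM or more 764 of 4399. The share for protein-coding genes under that level alone was not computed. Of the 14, 7 neither share over 50% of their 75-base words with another gene nor overlap one on the same strand. The median log2 ratio was 0.04 over the 51 members and 0.03 over all protein-coding genes. Among those with a mean of 20 FPKM or more it was -0.03 over 40 members, 52.5% of them below 0, and 0.05 over 4399 protein-coding genes, 40.8% of them below 0. The 51 members ran from -0.22 to 0.81, with 37 of 51 within 1.2-fold. In the authors' deposited table, 0 of the 55 members are among the 13 genes marked as significant, and the lowest p-value of a member in the authors' deposited table is 0.0746, for EIF3C, with a q-value of 0.893.

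**Figure D1:**
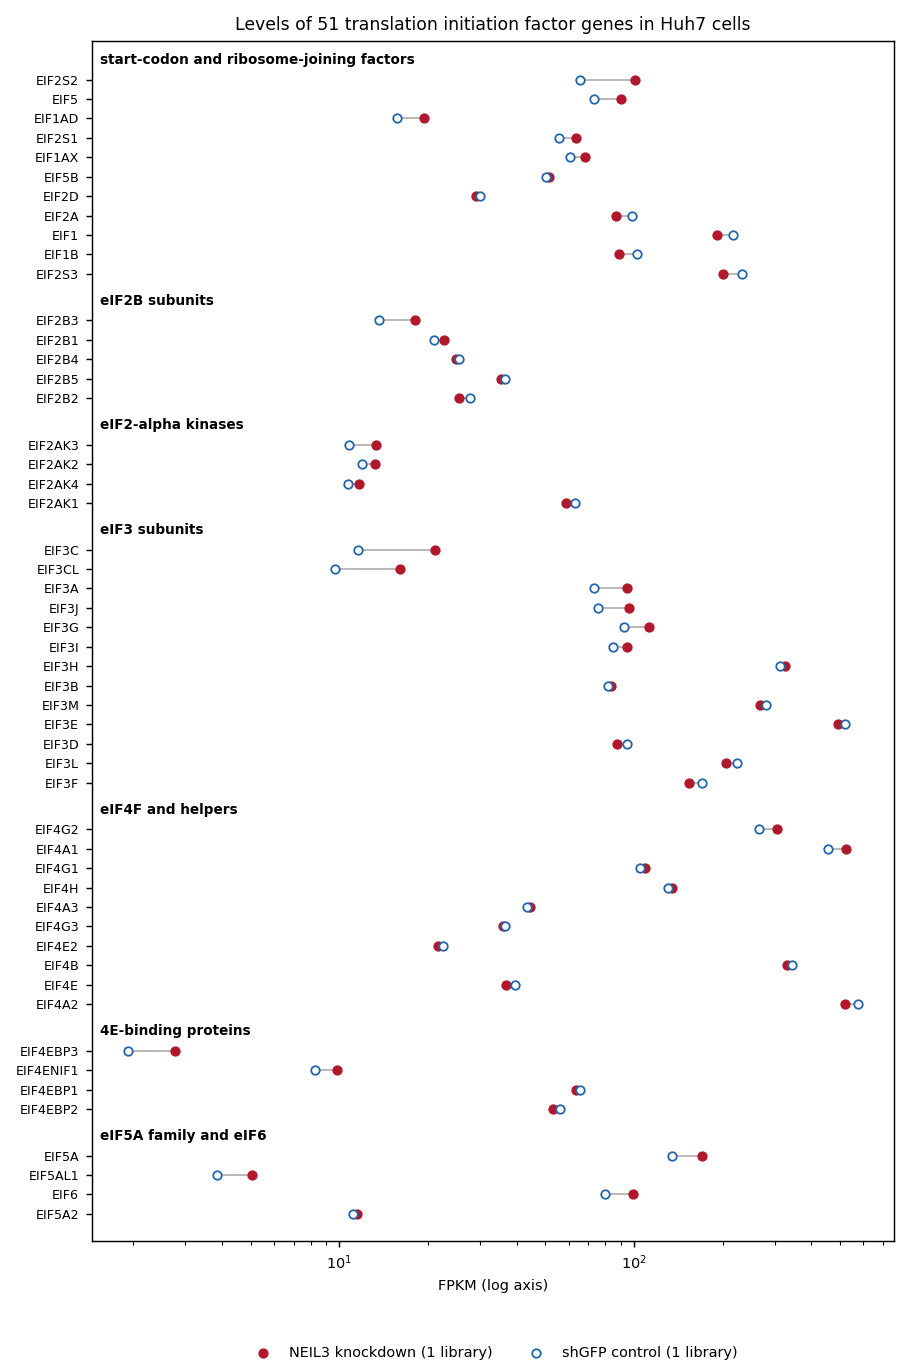
FPKM of the 51 measured members on a log axis, 1 row per gene, grouped by role. Filled points are the NEIL3 knockdown library and open points the shGFP control library. Levels span 2.76 to 523 FPKM in the knockdown library and 1.92 to 575 FPKM in the shGFP library, and for most genes the 2 points touch, with EIF3C, EIF3CL and EIF2S2 visibly apart.

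The measured members with a listed pyrimidine start were all lower in the knockdown library, each by less than 1.2-fold. All 8 measured members of this class were below 0, with log2 ratios from -0.22 to -0.05 and a median of -0.13, where 21 of all 51 measured members (41.2%) and 45.4% of all protein-coding genes were below 0. All 8 had a mean above 20 FPKM, and at that level 21 of 40 members (52.5%) were below 0. Of the 34 measured members with another listed start, 9 were below 0 and 25 above, with a median of 0.12. That median was 0.04 over the 24 with a mean of 20 FPKM or more, of which 9 were below 0, and also 0.04 over the 21 with no near copy or overlap, of which 7 were below 0, against -0.12 over the 5 with a pyrimidine start. The contrast between the classes is thus smaller under each of these limits than over all members. The floor of 20 FPKM does not match the classes by level. Those 24 had a median of 76.0 FPKM in the knockdown library and 67.1 FPKM in the shGFP library. The pyrimidine class had medians of 177 and 201 FPKM. All 14 members that were at least 1.2-fold higher lay outside the pyrimidine class, with 10 in the class of other starts and 4 among the 9 measured members for which no window was listed.

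Within the class, EIF2S3, the gamma subunit of eIF2 that binds GTP and the initiator tRNA, stood at 200.4 FPKM in the knockdown library and 233 FPKM in the shGFP library. It shares 15.1% of its 75-base words with EIF2S3B. EIF2A, a separate protein that can deliver initiator tRNA without GTP, stood at 87.0 FPKM in the knockdown library and 98.1 FPKM in the shGFP library. EIF4A2, an RNA helicase of eIF4F, stood at 519 FPKM in the knockdown library and 575 FPKM in the shGFP library. These were lower by factors of 1.16, 1.13 and 1.11. EIF3F, an eIF3 subunit, stood at 153 FPKM in the knockdown library and 170.1 FPKM in the shGFP library, also lower by a factor of 1.11.

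EIF3D, an eIF3 subunit that can itself bind the cap, stood at 87.5 FPKM in the knockdown library and 94.9 FPKM in the shGFP library. EIF4B, which stimulates the eIF4A helicase and is a known TOP transcript, stood at 329.8 FPKM in the knockdown library and 345 FPKM in the shGFP library. It shares 21.0% of its 75-base words with other genes, chiefly the pseudogene EIF4BP6, and overlaps AC068888.2 on the same strand. EIF3M, an eIF3 subunit, stood at 268 FPKM in the knockdown library and 279.9 FPKM in the shGFP library. EIF2D, which can place tRNA in the ribosome independently of eIF2, differed least, at 29.1 FPKM in the knockdown library and 30.1 FPKM in the shGFP library.

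The class with a pyrimidine start also stood at higher levels than the other members. Its median was 177 FPKM in the knockdown library and 201 FPKM in the shGFP library, against 40.4 and 41.4 FPKM for the members with another start. The longest coding transcripts had a median GC content of 41.7% in the pyrimidine class and 46.6% in the other class, and median lengths of 2528 and 3335 bases. Whether base composition or length has a part in the difference between the classes was not tested. The rule also depends on the exact base listed as the start: with a start allowed up to 5 bases to either side, 17 measured members met it, of which 11 were below 0, with a median of -0.06. The 17 include the 8 measured members of the class, all of them below 0, so the count of 11 rests largely on those.

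**Figure D2:**
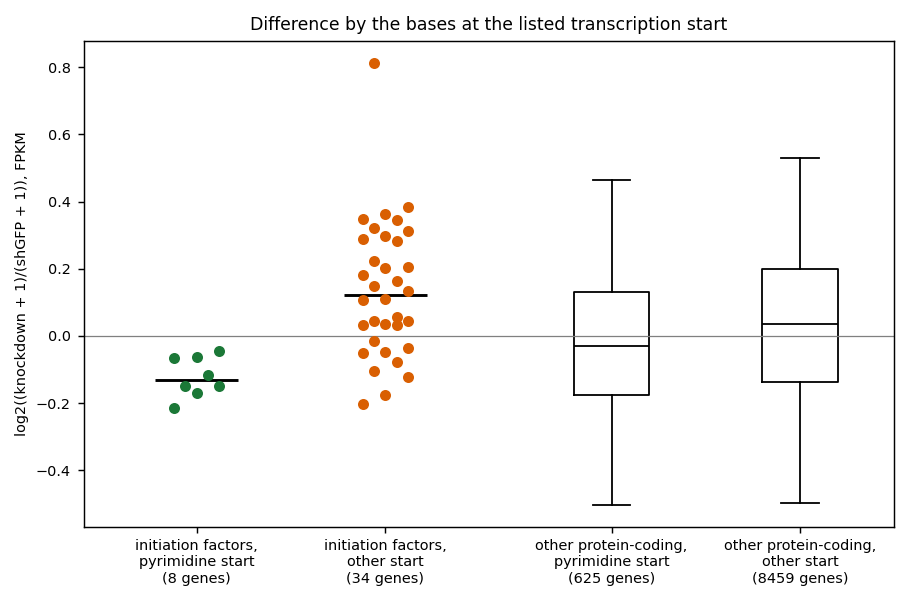
Log2 ratios by the bases at the listed start. Points are initiation factor genes with black lines at their medians (-0.13 for 8 genes with a pyrimidine start, 0.12 for 34 with another start, which is 0.04 for the 24 of these with a mean of 20 FPKM or more), and boxes show other protein-coding genes, ribosomal proteins left out, with the middle line at the median, the box from the 25th to the 75th percentile and whiskers from the 5th to the 95th. All 8 points of the first class lie below 0, and the box of other genes with a pyrimidine start has a median of -0.03 against 0.04 for other starts.

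A pair of further motifs was searched in the same windows of 250 bases before and 50 bases from the start, on both strands. CACGTG, the core of the E-box bound by MYC and related factors, was found in 12 of 61 member windows (19.7%) and in 7.26% of all 35116 RefSeq windows. The members with it were EIF1B, EIF2AK2, EIF2B3, EIF3F, EIF3K, EIF4A3, EIF4B, EIF4E, EIF4EBP3, EIF4G1, EIF4H and EIF5A2. They include genes that were higher and genes that were lower in the knockdown library. TGATGNAA, an element bound by ATF4 with C/EBP factors, was found in 1 of 61 member windows and in 3.62% of all windows. The pyrimidine start was found in 4.07% of all windows and in 14.8% of member windows. All windows include those of genes under 1 FPKM here, so none of these shares compares genes of like level. Among measured protein-coding genes, 678 had a pyrimidine start and 8512 another listed start, beside 8 and 34 of the members. Overlap between the motifs was not counted. A match describes letters in a window and does not show binding.

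Among the factors that carry the tRNA and choose the start codon, the 3 subunits of eIF2 differed in both directions. EIF2S2 (ENSG00000125977, chr20:34088298-34112332 on GRCh38), the beta subunit that contacts eIF5 and eIF2B, was 1.53-fold higher, at 100.6 FPKM in the knockdown library and 65.7 FPKM in the shGFP library. EIF2S1, the alpha subunit that stress kinases phosphorylate, stood at 63.5 FPKM in the knockdown library and 55.8 FPKM in the shGFP library. EIF2S2 thus exceeded EIF2S1 by 1.58-fold in the knockdown library and by 1.18-fold in the shGFP library, and its rank by level among the 51 members was 16 in the knockdown library and 26 in the shGFP library. EIF2S2 shares 18.5% of its 75-base words with transcripts of other genes, chiefly its processed pseudogene EIF2S2P4.

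The other start-codon factors differed by less than EIF2S2. EIF1, which holds the scanning ribosome open until a start codon is met, stood at 191 FPKM in the knockdown library and 216 FPKM in the shGFP library. Its paralogue EIF1B stood at 89.1 FPKM in the knockdown library and 102.6 FPKM in the shGFP library, so both copies were lower by similar factors of 1.13 and 1.15. EIF1AX, the X-linked eIF1A gene, stood at 68.2 FPKM in the knockdown library and 60.8 FPKM in the shGFP library.

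EIF5, the GTPase activator of eIF2, was at least 1.2-fold higher, at 90.5 FPKM in the knockdown library and 73.4 FPKM in the shGFP library. EIF5B, the GTPase that joins the large ribosomal subunit, stood at 51.3 FPKM in the knockdown library and 50.1 FPKM in the shGFP library. EIF1AD, an eIF1A domain protein, was higher at 19.4 FPKM in the knockdown library and 15.7 FPKM in the shGFP library. The 11 measured members of this group had a median log2 ratio of 0.03. Of these, 3 (27.3%) were at least 1.2-fold higher and 0 lower, beside 17.7% and 13.9% of all protein-coding genes.

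Of the 5 eIF2B subunits, which reload eIF2 with GTP, EIF2B3 was higher and the others were close. EIF2B3, the gamma subunit, stood at 18.1 FPKM in the knockdown library and 13.6 FPKM in the shGFP library, a plain ratio of 1.33. The catalytic subunit EIF2B5 stood at 35.3 FPKM in the knockdown library and 36.5 FPKM in the shGFP library, and EIF2B1, the alpha subunit, at 22.6 and 20.9 FPKM in knockdown and shGFP. EIF2B2 and EIF2B4, the beta and delta subunits, stood at 25.5 and 24.9 FPKM in the knockdown library and 27.9 and 25.6 FPKM in the shGFP library. The group's median was -0.03.

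The 4 kinases of eIF2-alpha, each tied to its own stress, were all measured. EIF2AK3 (PERK), which senses unfolded protein in the endoplasmic reticulum, was at least 1.2-fold higher, at 13.3 FPKM in the knockdown library and 10.8 FPKM in the shGFP library. EIF2AK2 (PKR), the sensor of double-stranded RNA, stood at 13.2 FPKM in the knockdown library and 11.9 FPKM in the shGFP library. EIF2AK4 (GCN2), the sensor of amino acid lack, stood at 11.6 FPKM in the knockdown library and 10.7 FPKM in the shGFP library. EIF2AK1 (HRI), the heme-regulated kinase and the most abundant of the 4, was the one below 0, at 58.7 FPKM in the knockdown library and 62.9 FPKM in the shGFP library.

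The eIF3 complex, the scaffold that joins the small subunit to the messenger RNA, had both the greatest differences among the members and subunits that hardly differed. EIF3C (ENSG00000184110, chr16:28688558-28735730) was 1.82-fold higher, at 21.1 FPKM in the knockdown library and 11.6 FPKM in the shGFP library. EIF3CL (ENSG00000205609, chr16:28379579-28403879), its copy on the other strand of the same chromosome, was 1.66-fold higher, at 16.1 FPKM in the knockdown library and 9.68 FPKM in the shGFP library. The copies share 96.0% of the 75-base words of EIF3C, so the split of fragments between them is uncertain. Their sum, which depends little on that split, was 37.1 FPKM in the knockdown library and 21.2 FPKM in the shGFP library, a ratio of 1.75. Without both copies the summed level of eIF3 was 2012 FPKM in the knockdown library and 2010.3 FPKM in the shGFP library, a ratio of 1.001.

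Beyond the copies, 3 subunits passed 1.2-fold. With the copies, which are hardly separate measurements, 5 of 13 measured subunits (38.5%) were at least 1.2-fold higher and 0 lower. Of all protein-coding genes, 17.7% were higher and 13.9% lower by that fold. At a mean of 20 FPKM or more, those shares were 17.4% and 7.89%. EIF3A, the largest scaffold subunit, stood at 94.3 FPKM in the knockdown library and 72.9 FPKM in the shGFP library. EIF3J, a loosely bound subunit that contacts the decoding centre, stood at 96.0 FPKM in the knockdown library and 75.2 FPKM in the shGFP library. EIF3G, an RNA-binding subunit, stood at 112.7 FPKM in the knockdown library and 92.7 FPKM in the shGFP library. These stood beside EIF3B and EIF3I, which belong to the same module as EIF3A and EIF3G and stood at 83.7 and 94.4 FPKM in the knockdown library and 81.8 and 85.0 FPKM in the shGFP library.

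EIF3E, EIF3H and EIF3L were abundant and lay close. EIF3E stood at 492 FPKM in the knockdown library and 522 FPKM in the shGFP library, EIF3H at 325 and 312 FPKM in knockdown and shGFP, and EIF3L, which shares 43.01% of its 75-base words with other genes, at 205.5 and 223 FPKM in knockdown and shGFP. EIF3E, EIF3F and EIF3H are known TOP transcripts. Of these EIF3E and EIF3F were lower and EIF3H was 1.04-fold higher. No start is listed for EIF3E and EIF3H, so they stand outside the start classes. EIF3K is listed at the floor of 1e-05 FPKM in the knockdown library and at 0.211 FPKM in the shGFP library, although every other subunit lay between 9.68 and 522 FPKM. Whether that entry reflects absent RNA or an estimate that failed was not tested, so no fold is given.

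**Figure D3:**
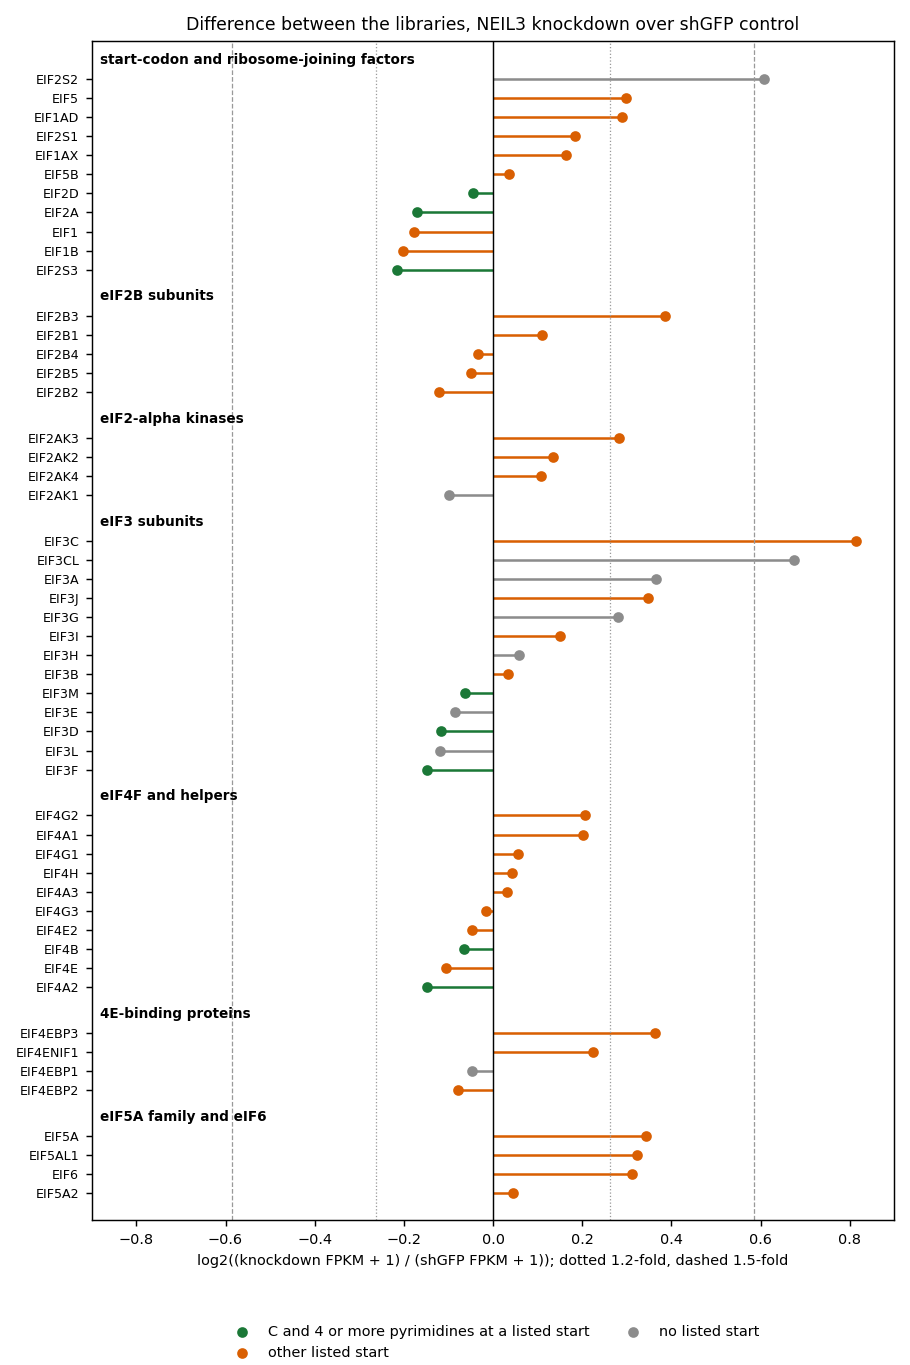
Log2 ratio of knockdown over shGFP for the 51 measured members, grouped by role, coloured by the bases at the listed start. Dotted lines mark 1.2-fold and dashed lines 1.5-fold. EIF3C, EIF3CL and EIF2S2 pass the dashed line, 11 others lie between dotted and dashed on the higher side, and no member reaches the dotted line on the lower side.

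None of the 10 measured genes of eIF4F and its helpers passed 1.2-fold in either direction. Of all protein-coding genes, 17.7% were higher and 13.9% lower by that fold. The paralogous helicases differed in opposite directions: EIF4A1 stood at 523 FPKM in the knockdown library and 455 FPKM in the shGFP library, while EIF4A2 was lower. The quotient of EIF4A1 over EIF4A2 was therefore 1.008 in the knockdown library and 0.791 in the shGFP library. All 75-base words of EIF4A1 also occur in transcripts of other genes, 87.2% of them in AC016876.2, so its value is uncertain. EIF4A3, the eIF4A-like core of the exon junction complex, stood at 44.2 FPKM in the knockdown library and 43.2 FPKM in the shGFP library.

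The cap-binding protein EIF4E stood at 36.7 FPKM in the knockdown library and 39.5 FPKM in the shGFP library. The scaffold EIF4G1 stood at 109 FPKM in the knockdown library and 105 FPKM in the shGFP library, and its paralogue EIF4G3 at 36.0 and 36.4 FPKM in knockdown and shGFP. EIF4G2 (DAP5), which lacks the eIF4E-binding part and serves initiation without the cap complex, stood at 306 FPKM in the knockdown library and 265 FPKM in the shGFP library. EIF4H, a helper of eIF4A, stood at 134.7 and 130.7 FPKM in knockdown and shGFP, and EIF4E2, a cap-binding repressor, at 21.7 and 22.4 FPKM. The germline eIF4E gene EIF4E1B is listed at the floor in both libraries, EIF4E3 stood at 0.497 and 0.708 FPKM in knockdown and shGFP, and EIF1AY was also under 1 FPKM.

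The proteins that hold eIF4E back were close at their abundant members. EIF4EBP1 stood at 63.7 FPKM in the knockdown library and 65.8 FPKM in the shGFP library, and EIF4EBP2 at 53.1 and 56.1 FPKM in knockdown and shGFP. EIF4EBP3, the least abundant of the 51, stood at 2.76 FPKM in the knockdown library and 1.92 FPKM in the shGFP library, but 70.7% of its 75-base words also belong to the readthrough gene ANKHD1-EIF4EBP3, so its value is uncertain. EIF4ENIF1, which carries eIF4E into the nucleus, stood at 9.82 FPKM in the knockdown library and 8.26 FPKM in the shGFP library. The quotient of EIF4E over EIF4EBP1 was 0.576 in the knockdown library and 0.6005 in the shGFP library.

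The eIF5A family and EIF6 had the highest group median, 0.32. At least 1.2-fold higher were 3 of 4, beside 17.7% of all protein-coding genes. The group is small, and nothing particular to it is read from that count. EIF5A, which helps the ribosome through difficult peptide bonds and carries the amino acid hypusine, stood at 171 FPKM in the knockdown library and 134 FPKM in the shGFP library. Its near copy EIF5AL1 stood at 5.05 FPKM in the knockdown library and 3.84 FPKM in the shGFP library, and EIF5A shares 18.0% of its 75-base words with it. EIF5A2, the second eIF5A gene, stood at 11.5 and 11.1 FPKM in knockdown and shGFP. EIF6, which keeps the ribosomal subunits apart and takes part in making the large one, stood at 99.4 FPKM in the knockdown library and 79.9 FPKM in the shGFP library. It shares 17.3% of its 75-base words with AL121753.1 and overlaps that gene on the same strand.

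Related translation genes were read from lists, whose counts stand beside a background of 17.7% higher and 13.9% lower by 1.2-fold. The lists are short, and nothing particular to a list is read from its count. Of 14 poly(A)-binding and accessory initiation proteins, 3 (21.4%) were at least 1.2-fold higher and 1 (7.14%) lower, with a median of 0.17. MCTS1, the partner of DENR in recycling and re-initiation, stood at 46.7 FPKM in the knockdown library and 35.3 FPKM in the shGFP library, and PAIP2B, a repressor of poly(A)-binding protein, at 0.741 and 1.14 FPKM in knockdown and shGFP. Of 12 genes of mTORC1 and MNK signalling, 1 (8.33%) was at least 1.2-fold higher and 2 (16.7%) were lower, with a median of 0.08.

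In that list AKT1S1 (PRAS40), an inhibitory subunit of mTORC1, stood at 18.4 FPKM in the knockdown library and 8.27 FPKM in the shGFP library, a ratio of 2.22. DDIT4 (REDD1), which restrains mTORC1 through the TSC complex, stood at 18.5 FPKM in the knockdown library and 28.7 FPKM in the shGFP library. MTOR itself stood at 20.8 and 17.8 FPKM in knockdown and shGFP. The 2 genes that differed most in this list thus both encode restraints of mTORC1, and they differed in opposite directions.

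Of 7 genes for the eIF2 phosphatase and stress effectors, 2 (28.6%) were at least 1.2-fold higher and 1 (14.3%) lower, with a median of 0.16. TRIB3, a target of ATF4, stood at 56.0 FPKM in the knockdown library and 41.4 FPKM in the shGFP library, and NCK1, an adaptor that binds eIF2, at 29.7 and 40.0 FPKM. ATF4, whose translation rises when eIF2 is phosphorylated, stood at 272 and 242 FPKM in knockdown and shGFP. Transcript levels do not show how far eIF2 was phosphorylated.

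Among 9 measured genes of elongation, 2 (22.2%) were at least 1.2-fold higher and 3 (33.3%) lower, with a median of -0.04. EEF1A2, the muscle and neuron form of the tRNA carrier, stood at 1.27 FPKM in the knockdown library and 4.28 FPKM in the shGFP library. EEF1B2, a subunit of the exchange factor, stood at 17.2 FPKM in the knockdown library and 21.97 FPKM in the shGFP library. Of 4 measured genes of termination and recycling, 0 passed 1.2-fold, and GSPT1 (eRF3) and HBS1L stood at 175 and 76.1 FPKM in the knockdown library and 156 and 84.0 FPKM in the shGFP library. The mitochondrial initiation factor MTIF2 was higher, at 44.0 FPKM in the knockdown library and 36.2 FPKM in the shGFP library, and MTIF3 stood at 30.9 and 30.7 FPKM in knockdown and shGFP.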

How the data were processed

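Total RNA of 2 Huh7 libraries, 1 per group, was sequenced after strand-specific library preparation, per the labels' protocols. The submitters' processing notes name the build GRCh38.p10 and, with no order or role, Cuffdiff, Cufflinks 2.2.1, SAMtools 1.2, Trimmomatic 0.36, bcl2fastq and HISAT2 2.1.0. The authors deposited 1 table with an FPKM value per gene and library, per the file headers. The authors also deposited their own comparison as a ratio, its log2, a p-value and a q-value, per the file headers, of which p and q of members are quoted. Neither the annotation release nor the strand setting of the counting is stated in the labels.

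The number of fragments per library is unknown, so no counting interval is given. Among 6118 genes under 0.3 FPKM in both libraries, the ratio of knockdown to shGFP was most often 1.29 (666 genes within 2%), which would fit 77.8% as many fragments in the knockdown library. Values of overlapping genes and near copies are uncertain. The share of 75-base words of a member's longest coding transcript that occur in other genes was counted in GENCODE 29 transcripts.

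Ratios were computed with a pseudocount of 1 FPKM over genes with 1 FPKM or more in at least 1 library; a symbol listed more than once was represented by its row of highest level. Plain ratios stand beside FPKM values where named. All members with 1 FPKM are named, and of each related list the 2 with the greatest absolute log2 ratio; MTOR and ATF4 were added after their values were seen. Members and lists were chosen with earlier results of these data known. Python 3.11.15 and pandas 2.3.3 were used. The 1.5-fold counts were checked on simulated data and the start rule on short made-up sequences. The 1.2-fold counts were not checked in that way.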

Additional observations from a re-analysis of the deposited data

Results flagged for a closer look

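Outside the protein-coding members, the table holds 75 further entries named after the family, 72 of them pseudogenes. Among those with 5 FPKM or more, 2 pseudogene entries were at least 1.2-fold higher in the knockdown library than in the shGFP library. EIF2S2P4 stood at 27.0 FPKM in the knockdown library and 17.6 FPKM in the shGFP library, a ratio of 1.54 beside 1.53 for EIF2S2, with which it shares 17.4% of the 75-base words of that gene. EIF5AP4 stood at 10.9 FPKM in the knockdown library and 8.26 FPKM in the shGFP library, a ratio of 1.32 beside 1.27 for EIF5A. Whether these values come from fragments of the parent genes was not tested.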

How the results depend on the processing

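No paired analysis was possible because each group has 1 library, and for the same reason no library could be left out. The members' median log2 ratio, 0.04, lay between 0.02 and 0.05, except at a mean of 20 FPKM or more, a level chosen after seeing the data, where it was -0.03 and the counts higher by 1.5-fold and 1.2-fold were 1 and 7. The median of members with another start, 0.12, was 0.04 at that level and 0.04 without copies and overlaps, where that of members with a pyrimidine start was -0.12. The counts of members higher by 1.5-fold (3) and by 1.2-fold (14) were 1 and 10 with a pseudocount of 5 FPKM, and 1 and 7 without the 21 members that have a near copy or overlap another gene on the same strand; the member left at 1.5-fold is EIF3C with that pseudocount and EIF2S2 without copies and overlaps. Centring on the median of protein-coding genes, a shift of 0.03, gave 2 and 11. Without an FPKM minimum, 1 member was lower by 1.2-fold, EIF3K, against 0 with it. Other pseudocounts, minimums and scalings gave counts within 1.5 times of the reported ones, 3 and 13 for the scaling without mitochondrial transcripts. The start rule and its alternatives were chosen after seeing the data. Members with a pyrimidine start were all below 0 with other pseudocounts and scalings (8 of 8), but these settings could not have given another outcome. A pseudocount keeps the sign of a ratio, and the scalings lowered every ratio. Leaving out copies and overlaps (5 of 5), or asking for a C and 6 or more pyrimidines (6 of 6), only takes members out of the class. Without a minimum (9 of 9) EIF3K joins, with a value near the floor. With a start up to 5 bases away, which brings in other measured members, 11 of 17 were below 0, the first 8 among them. With 1 library per group, differences of this size could not be set against the spread between cultures.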

Other observations

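Over all 678 measured protein-coding genes with a pyrimidine start, the median log2 ratio of knockdown over shGFP was -0.04, and 57.7% were below 0. Among the 8512 with another listed start the median was 0.04, and 44.6% were below 0. With ribosomal proteins and initiation factors left out and a mean of 20 FPKM or more, 285 genes with a pyrimidine start had 58.6% below 0 and a median of -0.05. The 3197 genes with another start at that level had 38.6% below 0 and a median of 0.07. Of 45 ribosomal protein genes with such a start, 42 were below 0, with a median of -0.14. These are descriptions of 2 libraries, and the rule on starts was chosen after the values of the initiation factors had been seen.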
